A study of Mus musculus with 4 samples.

Results

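The data described here are the 2 control libraries of a series of 4 poly(A) RNA-seq libraries of mouse germinal vesicle (GV) stage oocytes, chosen by their label as non-irradiated. The other 2 libraries of the series, from γ-irradiated oocytes, were not analysed here. The oocytes came from non-primed females of a C57/Bl6/DBA2J F1 hybrid background on postnatal day 16, when most oocytes are still growing and transcriptionally active. Cumulus cells were stripped by pipetting, the medium held milrinone, an inhibitor that keeps oocytes in meiotic arrest, and the zona pellucida was dissolved in acid Tyrode's solution before lysis. Each library was made from a pool of oocytes in an independent experiment. The labels do not say for how long the control oocytes were kept in culture before lysis, so culture time is not given as a property of these values.

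A growing oocyte stores messenger RNA for the time after growth, when transcription stops and meiosis, fertilization and the first cleavages run on the stock that was laid down. The products it accumulates include the zona pellucida glycoproteins that coat the egg, the secreted factors that act on granulosa cells, the subcortical maternal complex beneath the oocyte membrane, and oocyte-specific chromatin proteins and transcription factors. TPM, a transcript abundance scaled to a common library total, is used below as the level of a gene, because it corrects for transcript length. It does not correct for capture through the poly(A) tail, so levels of different genes are compared as captured RNA only. A gene's TPM is the sum over its listed transcripts, an SD is over the 2 libraries (n = 2), and no test was made because there is only 1 group.

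The table held 45505 RefSeq transcripts of 17374 genes, with 37232818 estimated counts in control 1 and 33349466 in control 2. Of these genes, 8955 reached 1 TPM in both libraries, 4068 reached 10 TPM, 1093 reached 100 TPM and 165 reached 1000 TPM. The 8955 genes were 51.5% of those listed and held 99.8% of the TPM in each library. Counts of list members at 1 TPM below stand beside this share. At this depth 13286 genes had more than 3 counts in both libraries. No mitochondrially encoded gene was among those listed, so the mitochondrial values below are for nuclear genes.

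The 4 markers of the oocyte were all among the 24 genes of highest TPM. Dppa3, which protects the maternal genome from loss of DNA methylation and is also known as Stella, was measured at 22942 TPM in control 1 and 21911 TPM in control 2. Zp3, the zona glycoprotein that carries sperm-binding activity, stood at 10914 and 11773 TPM. Spin1, a reader of methylated histone H3 that is abundant in oocytes, stood at 8154 and 7921 TPM. Gdf9, the oocyte-secreted growth factor that drives granulosa cell proliferation, stood at 5918 and 5582 TPM. The libraries were close to each other for all 4 genes, and neither library was the higher one throughout. All 12 of the oocyte markers examined reached 1 TPM in both libraries, from Dppa3 down to Kit, the receptor for granulosa-derived Kit ligand, at 13.4 and 16.8 TPM.

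The listed markers of other ovarian cell types were each below 10 TPM in both libraries. Of 17 granulosa and cumulus markers, 13 were listed and summed to 19.8 TPM in control 1 and 21.8 TPM in control 2, against 55268 and 55304 TPM for the 12 oocyte markers. The 5 that reached 1 TPM in both libraries were Cyp19a1, Nr5a2, Krt8, Fshr and Kitl. Cyp19a1, the aromatase, stood at 8.79 and 9.80 TPM. Nr5a2, which is also in the list of oocyte transcription factors below, stood at 3.53 and 4.93 TPM. Krt8 stood at 2.98 and 2.63 TPM. Fshr, the receptor for follicle-stimulating hormone, stood at 2.37 and 2.08 TPM, and Kitl at 1.78 and 2.07 TPM. Amh, Foxl2, Ptx3 and Wt1 were not among the listed genes, and Krt18 had a count of 0 in both libraries, which allows up to 0.0806 and 0.0900 CPM (counts relative to the library total) by counting error alone. In the remaining lists the markers that reached 1 TPM in both libraries were Cyp11a1 among 6 listed theca and stroma markers (1.00 and 1.14 TPM), Cd68 as the single listed blood and immune marker (1.69 and 1.58 TPM), and Pecam1 among 4 listed endothelial markers (3.85 and 4.98 TPM). Cyp17a1, the steroid 17α-hydroxylase of theca cells, had a count of 0 in both libraries. Whether these low values come from somatic cells or from the oocyte was not tested, and in pooled samples fewer cells of a type and less RNA per cell cannot be told apart.

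A small number of genes took a large share of the transcriptome. The highest gene held 2.90% of the TPM of control 1 and 2.66% of control 2, the 10 highest held 18.2% ± 0.465, the 30 highest 33.4% ± 0.540, and the 100 highest 52.0% ± 0.770. The number of genes that together held 50% of the TPM was 87 in control 1 and 92 in control 2, and 90 when the libraries were averaged. The plot of cumulative share shows the same steep rise in both libraries. With genes ranked by estimated count instead, the 10 highest genes held 18.0% of the counts and the 100 highest held 49.7%.

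**Figure D1:**
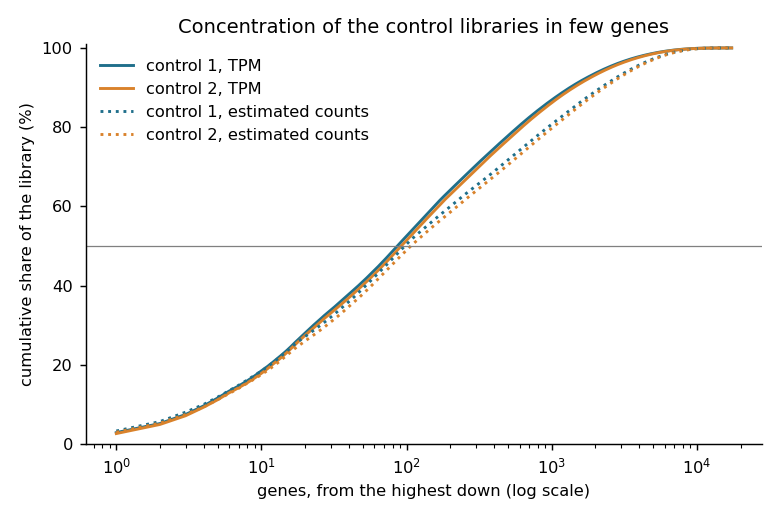
Cumulative share of each control library (percent) against the number of genes counted from the highest down (log scale), for TPM (solid lines) and for estimated counts (dotted lines). The grey line marks 50%, which the TPM curves cross at 87 genes in control 1 and 92 genes in control 2.

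The gene of highest TPM was Ldhb, the H subunit of lactate dehydrogenase, which interconverts lactate and pyruvate. It lies on chromosome 6 (GRCm38.p6, chr6:142490249-142507957) and stood at 28977 TPM in control 1 and 26619.8 TPM in control 2. Ubb, a polyubiquitin gene on chromosome 11 (chr11:62551171-62553213), stood at 22805 and 23028 TPM. Elobl, an elongin B-like gene (chr11:88964658-88966931), came after Dppa3, at 21794 and 21600.1 TPM. H1f8, which encodes the oocyte-specific linker histone, stood at 19822 and 18950.2 TPM (chr6:115944931-115950242). Dppa5a, a KH-domain gene named for its expression in early embryos and germ cells (chr9:78367052-78368199), stood at 17577 and 17404 TPM. These genes and Dppa3, 6 in all, were above every other gene in both libraries. The seventh by mean TPM, Ftdc2, stood at 12473 and 13179 TPM, with rank 10 in control 1 and rank 7 in control 2.

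**Figure D2:**
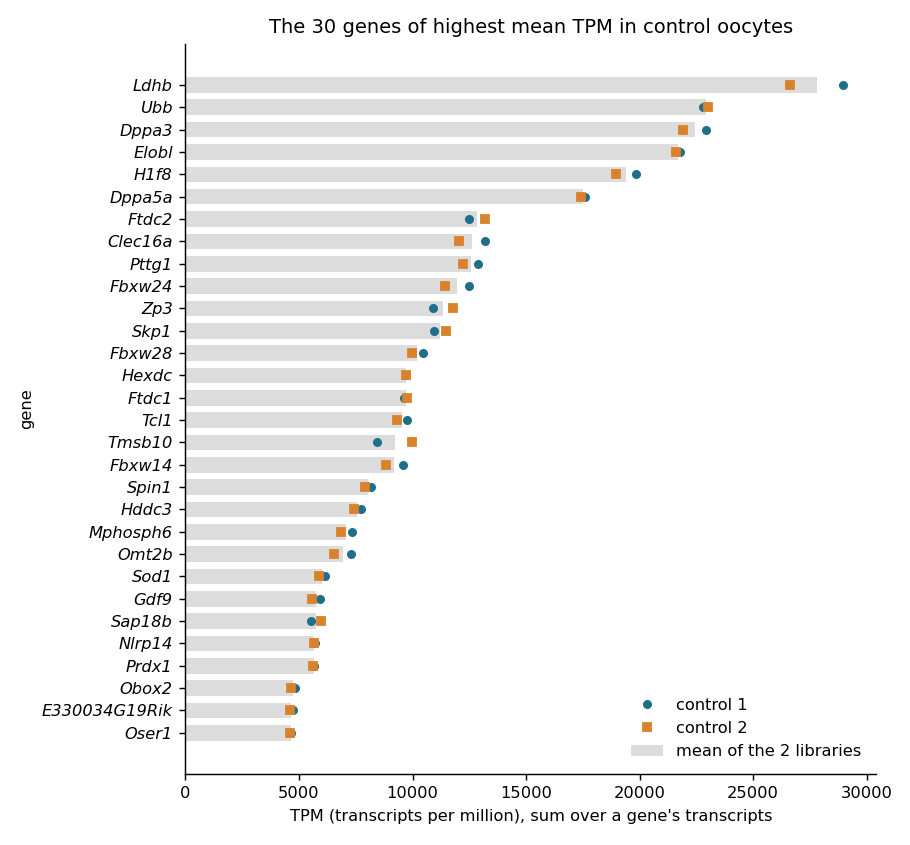
TPM of the 30 genes of highest mean TPM (horizontal axis, linear from 0), with a circle for control 1, a square for control 2 and a grey bar for their mean. The step from Dppa5a (17490.2 TPM) to Ftdc2 (12826 TPM) separates the 6 highest genes, and the widest distance between the libraries relative to the mean is that of Tmsb10.

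Among the next genes were several with known roles in the cell cycle and in protein turnover. Pttg1, which encodes securin, the inhibitor of separase, had a mean of 12569 ± 472 TPM. Skp1, the adaptor that joins F-box proteins to the cullin of SCF ubiquitin ligases, had a mean of 11208 ± 397 TPM. The F-box genes Fbxw24 (11953 ± 752 TPM), Fbxw28 (10214 ± 363 TPM) and Fbxw14 (9204 ± 545 TPM) were in the same range as Skp1. Tcl1, a co-activator of the kinase AKT that is known as a maternal factor for early cleavage, had a mean of 9529 ± 316 TPM. Its neighbours in the Tcl1b family were lower, from Tcl1b1 at 1328 ± 43.6 TPM to Tcl1b5 at 103 ± 6.46 TPM. Tmsb10, which encodes an actin-sequestering thymosin, stood at 8457 and 9984 TPM, the largest relative difference among the 30 genes (a coefficient of variation of 11.7%, against a median of 3.28%).

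The remaining genes of the 30 had no common role. Ftdc1 (9704 ± 102 TPM) and Ftdc2 (12826 ± 499 TPM) are neighbouring genes with a ferritin-like domain (chr16:58613686-58638403), and together they held 2.21% of the TPM in control 1 and 2.30% in control 2. Clec16a (12608 ± 809.8 TPM), a gene linked to endosome and mitophagy regulation, Hexdc (9719 ± 0.509 TPM), a hexosaminidase, and Hddc3 (7575 ± 230.2 TPM), an HD-domain hydrolase, are described with their transcripts below. Mphosph6 (7076 ± 342 TPM), an exosome-associated protein, Sap18b (5747 ± 321 TPM), Oser1 (4649.8 and 4607 TPM), an oxidative stress-responsive gene, and E330034G19Rik (4670.2 ± 88.3 TPM) completed the group with genes of the lists below, Omt2b, Sod1, Nlrp14, Prdx1 and Obox2. All 30 genes were among the 30 highest in each library taken alone. Of the 100 highest by mean TPM, 97 were among the 100 highest of both libraries.

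The oocyte gene families together took 14.2% of the TPM of control 1 and 13.9% of control 2 with 73 genes. The F-box WD40 genes, which encode putative substrate receptors of SCF ligases, were the largest of them. All 14 reached 1 TPM in both libraries, 13 were among the 1000 highest genes, and their sum was 5.69% of the TPM in control 1 and 5.27% in control 2. Among these 14 the values ran from Fbxw24 (12485 and 11421 TPM) to Fbxw13 (690 and 659 TPM). Fbxw17 stood apart from the others of the 14 at 9.16 and 9.12 TPM. Each of the 14 was lower in control 2 than in control 1. Fbxw17 lies on chromosome 13, whereas the other 13 genes lie within 0.651 Mb of chromosome 9 (chr9:109139454-109790660), an interval with 15 listed genes. By symbol 16 such Fbxw genes were listed, with 5.73% of the TPM in control 1 and 5.30% in control 2, so the 14 are not the whole family. These genes are close in sequence, so reads may have been divided among them with error. The sum over the 14 does not carry error within the 14, but it can carry error between them and genes outside the list.

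The promoters of this cluster are shown with those of other abundant genes, some of which differ from them in base composition. The sequences are the 250 bases before the annotated gene start, from RefSeq (GRCm38.p6), 5′ to 3′ on the gene's strand. Capitals mark E-boxes (CANNTG, the motif of basic helix-loop-helix factors, which include FIGLA, the regulator of the zona genes), a TATA element (TATAAA or TATATA within the last 50 bases before the start), and GC boxes (GGGCGG, or CCGCCC on the other strand), and overlapping GC boxes run together. Fbxw28 (chr9:109339660-109339909, minus strand) and Fbxw14 (chr9:109287677-109287926, minus strand) stand for the F-box WD40 cluster, Zp3 (chr5:135979855-135980104, plus strand) for the zona genes, and Oog4 (chr4:143450325-143450574, minus strand) for the PRAME-like genes. Sod1 (chr16:90220512-90220761, plus strand) and Mphosph6 (chr8:117801975-117802224, minus strand) are abundant genes of general function.
Fbxw28: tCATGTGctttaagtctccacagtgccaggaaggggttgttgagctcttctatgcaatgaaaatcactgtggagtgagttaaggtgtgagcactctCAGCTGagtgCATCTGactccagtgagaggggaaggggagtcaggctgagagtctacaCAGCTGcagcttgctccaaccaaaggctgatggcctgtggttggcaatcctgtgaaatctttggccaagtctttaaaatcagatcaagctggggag
Fbxw14: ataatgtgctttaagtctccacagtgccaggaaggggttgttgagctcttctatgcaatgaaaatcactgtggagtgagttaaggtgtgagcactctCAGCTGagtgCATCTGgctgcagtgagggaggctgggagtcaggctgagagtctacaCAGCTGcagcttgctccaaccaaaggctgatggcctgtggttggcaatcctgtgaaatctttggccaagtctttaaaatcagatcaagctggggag
Zp3: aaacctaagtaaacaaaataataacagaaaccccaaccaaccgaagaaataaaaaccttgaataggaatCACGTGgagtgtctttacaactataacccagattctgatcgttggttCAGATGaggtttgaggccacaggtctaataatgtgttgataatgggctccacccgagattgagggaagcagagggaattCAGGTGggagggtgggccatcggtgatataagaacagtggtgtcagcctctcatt
Oog4: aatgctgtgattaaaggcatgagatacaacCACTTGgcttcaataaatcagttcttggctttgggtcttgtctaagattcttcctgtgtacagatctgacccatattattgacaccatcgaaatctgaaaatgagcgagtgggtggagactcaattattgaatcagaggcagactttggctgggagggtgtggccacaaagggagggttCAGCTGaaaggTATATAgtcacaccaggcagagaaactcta
Sod1: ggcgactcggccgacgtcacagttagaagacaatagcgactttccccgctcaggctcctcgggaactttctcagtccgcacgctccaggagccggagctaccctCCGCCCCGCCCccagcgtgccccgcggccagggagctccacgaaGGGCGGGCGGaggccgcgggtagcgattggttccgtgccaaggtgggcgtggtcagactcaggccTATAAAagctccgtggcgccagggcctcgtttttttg
Mphosph6: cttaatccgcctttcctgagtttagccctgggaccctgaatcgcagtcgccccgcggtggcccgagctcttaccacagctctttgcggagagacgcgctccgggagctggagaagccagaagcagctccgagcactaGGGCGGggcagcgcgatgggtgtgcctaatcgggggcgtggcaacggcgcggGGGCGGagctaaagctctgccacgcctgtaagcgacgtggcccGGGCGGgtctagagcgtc

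Fbxw28 and Fbxw14 held no CpG in these bases, Oog4 held 2 and Zp3 held 5, whereas Sod1 and Mphosph6 held 26 each. The first 2 promoters were 96.8% identical and carried 4 and 3 E-boxes, Zp3 carried 3 E-boxes, and Sod1 and Mphosph6 carried none. Oog4 had TATATA 30 bases before its start and Sod1 had TATAAA 37 bases before its start. Among the F-box WD40 genes of the list, 9 in the chromosome 9 cluster had a single listed promoter. Their 36 pairs were between 71.6% and 96.8% identical over the 250 bases, with a median of 85.8%. These promoters are therefore not independent examples. The 9 pairs with Fbxw17, on chromosome 13, were between 49.2% and 54.0% identical.

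The same features were counted over the 11281 listed genes with exactly 1 promoter in the RefSeq table, using 300 bases from 250 before to 50 after the start. Of the 100 highest genes 71 could be counted, and 28 of them (39.4%) held at most 5 CpG, against 7.72% of the following genes up to rank 1000, 8.01% of those from there to rank 5000 and 22.3% of all 11281. Of the F-box WD40 promoters counted, 9 of 10 were in this CpG-poor class, against 0 of 51 cytosolic ribosomal protein promoters. Of the zona pellucida and gamete surface promoters 2 of 5 were in it, and Zp3, with 7 CpG in the 300 bases, was not. Of the 71 genes, 16 of the 19 in an oocyte list other than transcription factors were CpG-poor, as were 12 of the other 52. A TATA element was found in 12 of the 71 (16.9%), against 451 of all 11281. The 12 were Obox1, Obox5, Oog1, Oog3, Oog4, Pramel25, Pramel26 and Pramel29, which belong to the Obox and PRAME-like families, and Sod1, Prdx1, H3f3b and Ppia. All 28 CpG-poor promoters of the highest genes held an E-box, against 81.7% of the 2516 CpG-poor promoters of listed genes and 67.2% of all promoters. An E-box was also found in all 19 of the oocyte lists and in 34 of the other 52 (65.4%). Sod1 and Mphosph6, without one, are therefore not typical of those 52. These shares are descriptions of letters in a window, and the families contribute related sequences to them. The window is set at the annotated gene start, and whether the dominant transcripts in these oocytes start there was not tested.

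The zona pellucida and gamete surface genes held 1.90% ± 0.0948 of the TPM. Zp3 was followed by Zp2 at 4289.6 and 4452 TPM, and Zp1 was lowest of the 3 coat proteins at 989 and 1294 TPM. Cd9, the tetraspanin needed for sperm fusion, stood at 1794 and 1742 TPM. Izumo1r, also known as Juno, the receptor for sperm IZUMO1, stood at 219 and 246 TPM, and Astl, the cortical granule protease ovastacin that cleaves ZP2 after fertilization, stood at 99.1 and 139 TPM. Relative to their level, Zp1 and Astl differed more between the libraries than Zp2 or Cd9, and both were higher in control 2. Cd81, a tetraspanin related to Cd9, was below 1 TPM in both libraries.

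Secreted growth factors held 0.727% ± 0.00455, and Gdf9 made up 79.1% of this sum. Bmp15, its partner in signalling to granulosa cells, stood at 1053 and 1284 TPM, and Tgfb2 at 215 and 228 TPM. Gja4, which encodes connexin 37 of the gap junctions between oocyte and granulosa cells, stood at 326 and 356 TPM and was 76.9% of its list. Gja1, the connexin of granulosa cells, was at 0.03 TPM in both libraries.

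All 8 genes of the subcortical maternal complex and its partners were among the 1000 highest. Ooep had 3994 and 3978 TPM, Zbed3 had 2721 and 3300.5 TPM, and Khdc3, also known as Filia, had 2661 and 2716 TPM. Padi6 (2266 ± 117 TPM), Nlrp5, also known as Mater (1964 ± 14.9 TPM), Tle6 (812 ± 77.6 TPM), Nlrp4f (696 ± 6.96 TPM) and Nlrp2 (139.6 ± 22.9 TPM) followed. The complex is required for cleavage past the early embryo stages, and its sum was 1.56% ± 0.0678 of the TPM. Of the other NLRP genes listed, 9 in all, every one reached 1 TPM in both libraries, and Nlrp14 (5714 and 5649.7 TPM) made up 75.9% of their sum, followed by Nlrp9c (396 and 399 TPM) and Nlrp9b (381 and 408 TPM).

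The Oosp, oogenesin and Omt2 genes, oocyte-secreted and oocyte-limited families of mostly unknown function, held 2.31% ± 0.0442. All 9 were among the 1000 highest, and 7 were among the 100 highest. Omt2b had a mean of 6922 ± 545 TPM, Omt2a stood at 2905 and 2750.0 TPM, and Oosp1 at 2400 and 2498 TPM. The oogenesins belong to the PRAME-like family, of which 40 genes were listed by symbol, with a sum of 1.82% of the TPM in control 1 and 1.79% in control 2.

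Oocyte transcription factors held 1.28% ± 0.0295 of the TPM, and the Obox homeobox genes were at their head. Obox2 stood at 4820.4 and 4637 TPM, Obox1 at 3195 and 3095 TPM, and Obox5 at 2545 and 2335 TPM. The 6 listed Obox genes lie on chromosome 7 and held 1.10% and 1.04% of the TPM. The other 3 Obox genes were lower, with Obox7 at 410 and 355 TPM, Obox3 at 1.61 and 1.08 TPM and Obox6 at 0 and 0.07 TPM. The regulators of follicle formation were below Obox1, Obox2 and Obox5. Nobox stood at 398 and 439.7 TPM, Figla at 178 and 180.2 TPM, and Lhx8 at 52.8 and 63.1 TPM, whereas Zp3, a gene that FIGLA controls, was at 10914 and 11773 TPM. Sohlh1 was at 1.63 and 1.45 TPM and Sohlh2 at 0.46 and 0.74 TPM.

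Chromatin genes were led by maternal forms. H1f8 made up 81.1% of the histone list, followed by H3f3b (2368 and 2336 TPM) and H3f3a (1102 and 1178 TPM), which both encode the replacement histone H3.3. Of the 20 histone genes 14 reached 1 TPM in both libraries, and because the libraries were made from poly(A) RNA, replication-dependent histone messages without a tail would be under-represented. Dppa3 was 98.2% of the DNA methylation list. Dnmt1, the maintenance methyltransferase, stood at 182 and 169.7 TPM, Uhrf1, its partner at hemimethylated DNA, at 97.8 and 95.1 TPM, and Dnmt3l, the cofactor of methylation during oocyte growth, at 38.8 and 39.7 TPM. Dnmt3a, the de novo enzyme, was at 6.14 and 5.44 TPM. Genes of pericentric heterochromatin had a median of 15.3 TPM, with 17 of 19 at 1 TPM or more in both libraries, led by Cenpa (130.3 ± 8.17 TPM), Suv39h1 (78.5 ± 3.01 TPM) and Cbx1 (76.9 ± 1.84 TPM).

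Maternal RNA control was represented at moderate levels. All 18 genes of RNA storage and translational control reached 1 TPM in both libraries, with a median of 33.5 TPM. Zar1l (651 and 620.2 TPM) and Zar1 (370.0 and 439 TPM), which bind and store maternal messages, led the list, followed by Dazl (343 and 373 TPM), a translational activator. Btg4, the adaptor of the CCR4-NOT deadenylase that clears maternal RNA at maturation, stood at 3176 and 2892 TPM and was 89.0% of the decay list. The deadenylase subunit Cnot7 that it recruits stood at 111 and 127 TPM, followed by Pan3 at 59.9 and 60.0 TPM. In the small RNA pathway Gtsf1 (2661 and 2688 TPM) stood above Mael (98.4 and 113 TPM) and Henmt1 (75.2 and 79.7 TPM), and Dicer1, which makes the endogenous small interfering RNAs of oocytes, was at 34.1 and 35.0 TPM.

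Meiotic regulators covered a wide range. Ccnb1, the cyclin of maturation promoting factor, stood at 1877 and 1909.7 TPM, Mos, the kinase that holds mature eggs in metaphase II, at 1199 and 1154 TPM, and Ccnb2 at 364 and 359 TPM. Cdk1, the kinase partner of cyclin B, was at 52.6 and 51.2 TPM. The phosphodiesterase Pde3a, the target of milrinone, was at 4.16 and 3.87 TPM, and Gpr3, the receptor that keeps cAMP high in the arrested oocyte, was at 4.70 and 7.23 TPM. Spindle genes were all detected, 21 of 21, with Birc5, or survivin, at 2927 and 2789.7 TPM, Tacc3 at 1735 and 1656 TPM, and the checkpoint gene Mad2l1 at 576 and 595 TPM. Aurkc, the germ cell Aurora kinase, was at 375 and 347 TPM, above Aurka at 132 and 151 TPM and Aurkb at 4.93 and 6.27 TPM.

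Genes of synapsis and recombination, steps of the earlier meiotic prophase, had a median of 3.035 TPM, against 1.24 TPM for all listed genes. Of 26 genes of synapsis and recombination, 17 reached 1 TPM in both libraries, and Syce2, a central element protein, made up 72.8% of the sum at 577 and 579 TPM, followed by Hsf2bp (63.9 and 69.6 TPM) and Tex12 (44.7 and 48.6 TPM). Spo11, which makes the initiating breaks, was at 0.03 TPM in control 1 and 0 in control 2. Of 23 listed cohesin and condensin genes, 21 reached 1 TPM in both libraries, led by the acetyltransferase Esco2 (419 and 467 TPM), Cdca5, or sororin (229 and 242 TPM), and the condensin subunit Ncapg (159 and 172 TPM). The meiotic cohesin subunit Smc1b was at 9.42 and 9.01 TPM and Stag3 at 0.24 and 0.34 TPM.

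The DNA damage response list had a median of 7.40 TPM, and 36 of its 41 genes reached 1 TPM in both libraries. Mdm4, an inhibitor of p53, stood at 605 and 579.8 TPM, and Chek1, the checkpoint kinase, at 204 and 235 TPM. Among apoptosis regulators, 13 of 24 listed genes reached 1 TPM in both libraries, near the 51.5% of all listed genes. The sum was made up almost entirely by Bcl2l10, an oocyte-rich member of the BCL2 family (3111 and 3190.3 TPM), and Birc5. Bik, which followed, was at 29.7 and 32.8 TPM, and the p53 targets Bbc3, or PUMA, and Pmaip1, or NOXA, were at 0 and at 0.04 and 0.07 TPM. The list of senescence genes and CDK inhibitors summed to 29.4 and 32.2 TPM over 15 listed genes, led by Glb1 (5.26 and 5.53 TPM), Hmga2 (4.60 and 5.02 TPM) and Hmga1 (4.03 and 4.73 TPM). Cdkn1a, or p21, was at 0.44 and 0.45 TPM. These are the levels without irradiation.

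Energy metabolism was uneven between pathways. Ldhb alone made up 96.7% of the list of glycolysis, lactate and pyruvate genes, and the next members were the pyruvate carrier Mpc1 at 221 and 227 TPM and the dehydrogenase Dld at 152 and 164 TPM. Gapdh, a glycolytic enzyme often used as a reference gene, was at 113 and 125 TPM. Nuclear-encoded oxidative phosphorylation subunits held 3.49% ± 0.0124 of the TPM with a median of 219 TPM, and no gene made up more than 9.07% of the sum. The highest of them were Atp5e (3095 and 3241 TPM), Atp5h (1500.2 and 1576 TPM) and Atp5j2 (1599.7 and 1472 TPM), all subunits of ATP synthase. The tricarboxylic acid cycle held 0.117%, led by Mdh2 (250.5 and 258 TPM), Sdhb (166 and 171 TPM) and Sdhc (146 and 158 TPM). Antioxidant enzymes held 1.53% ± 0.0285, of which Sod1 (6142 and 5872 TPM), Prdx1 (5678 and 5634 TPM) and Prdx2 (2640.0 and 2599 TPM) were the main part. Cat, or catalase, was at 0.15 and 0.16 TPM.

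The ribosomal and proteasome lists were spread over many genes, whereas Ubb and Skp1 led the ubiquitin list. All 80 cytosolic ribosomal protein genes were above 1 TPM in both libraries, with a median of 229 TPM and a sum of 3.42% and 3.44%. Their leading members were Rpl35 (3191 and 3181 TPM), Rpl5 (2551 and 2396 TPM) and Rps13 (2032 and 2090.3 TPM), and Rps6 was at 11.9 and 13.2 TPM. All 78 mitochondrial ribosomal protein genes were above 1 TPM as well, led by Mrps33 (1482 ± 23.4 TPM), Mrps36 (856 ± 26.7 TPM) and Mrpl48 (642 ± 12.8 TPM), with a sum of 1.12%. The proteasome held 1.38% ± 0.0110, with Psma7 (2318 and 2312 TPM), Psmb2 (1646 and 1621 TPM) and Psma2 (1335 and 1287 TPM) at its head. Ubiquitin and SUMO conjugation held 4.71% ± 0.0947, of which Ubb was 48.7%, followed by Skp1 and by Uchl1, an oocyte and neuronal deubiquitinase, at 3211 and 3553 TPM. The proteasome, ubiquitin and SUMO, and F-box WD40 lists, 97 genes without the ribosomal lists, together held 11.6% ± 0.218 of the TPM.

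Further lists followed the same form, with 1 gene far above the rest in several of them. Among translation factors Naca (1626 ± 22.8 TPM), Btf3 (766 ± 14.7 TPM) and Eif4e (503 ± 11.3 TPM) led. Chaperones were headed by Ppia (2316 ± 79.0 TPM), Hsp90aa1 (2165 ± 89.4 TPM) and Hspa8 (1294 ± 15.4 TPM). In the cytoskeleton list Tmsb10 was 66.4% of the sum, and Cfl1, or cofilin, followed with a mean of 1603 ± 4.10 TPM, then Tubb4b at 923 and 968 TPM, while Actb, another common reference gene, was at 199.7 and 229 TPM. Splicing genes were led by the Sm proteins Snrpe (826 ± 43.8 TPM), Snrpd2 (734 ± 15.5 TPM) and Snrpd1 (514 ± 12.3 TPM). The calcium list was led by Calm2 (2435 and 2308 TPM), Orai1 had a mean of 28.9 ± 1.90 TPM, and Itpr1, the receptor that releases calcium at fertilization, was at 2.04 and 2.22 TPM. The transporters Slc3a2 and Slc2a1 followed Gja4 at 76.5 ± 0.813 TPM and 7.99 ± 1.31 TPM.

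In the signalling pathway that controls oocyte growth, 17 of 21 genes reached 1 TPM in both libraries, with a median of 3.075 TPM. The median of all listed genes was 1.24 TPM. The PI3K, FOXO3 and mTOR list held 0.0196% of the TPM, which was 0.00902% with NM_ transcripts only and 0.0623% by estimated counts. It summed to 189 and 203 TPM over 21 genes, led by Foxo3, the repressor of follicle activation, at 56.2 TPM in both libraries, Rps6kb1 (31.0 and 29.0 TPM) and Rictor (17.1 and 19.8 TPM). The pluripotency list was Dppa5a to 95.8%, with Sall4 (515 and 499.6 TPM) and Dppa2 (212 and 223 TPM) next, and Pou5f1, or Oct4, was at 5.83 and 5.58 TPM and Nanog at 1.75 and 1.43 TPM. Among genes known from embryonic genome activation, 8 of 15 listed reached 1 TPM in both libraries, near the 51.5% of all listed genes. They were led by Arg2 (829 and 844 TPM), Tcstv1 (320.4 and 310.0 TPM) and Tcstv3 (124 and 111 TPM). Zscan4d was at 6.37 and 7.21 TPM.

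**Figure D3:**
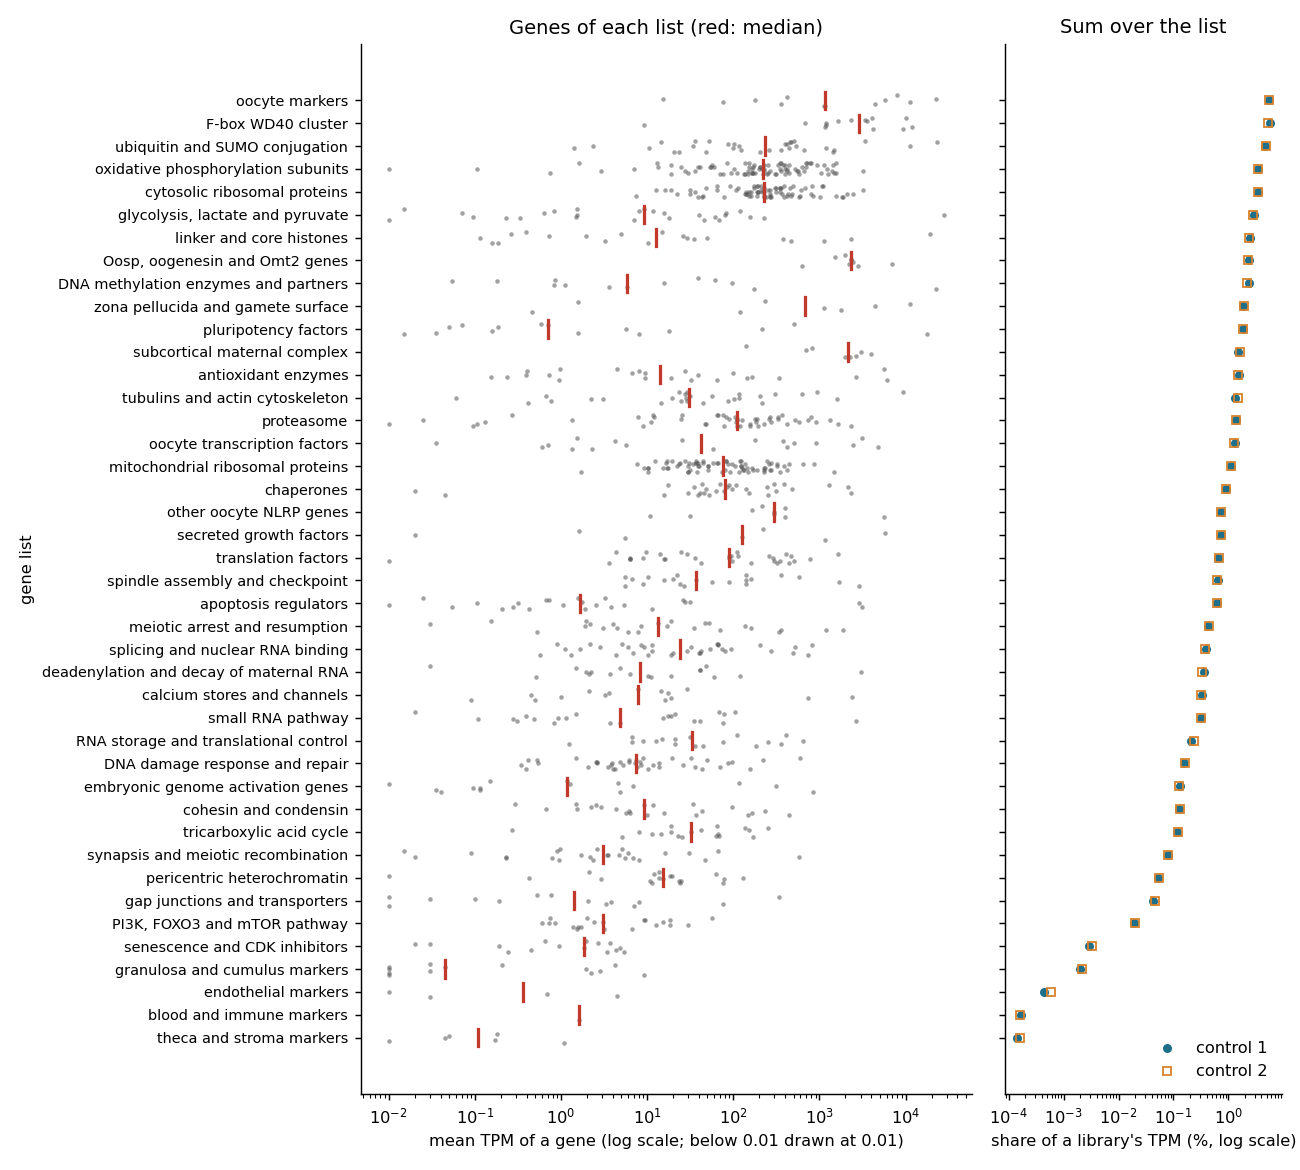
Mean TPM of each listed gene in the gene lists (left, log scale, red bar at the list's median, values under 0.01 drawn at 0.01) and the share of each library's TPM in the sum over the list (right, percent, log scale, circle for control 1 and open square for control 2). Lists such as pluripotency factors and DNA methylation enzymes have a high sum and a low median because 1 gene carries them, whereas ribosomal proteins and oxidative phosphorylation subunits have many genes near a median above 200 TPM.

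The lists held 57 of the 100 highest genes, and the other 43 genes, with 19.9% of the TPM, were in none of them. Beyond those already named they included Npm2, a nucleoplasmin of the oocyte nucleus (4004 and 3730.3 TPM), Slbp, which binds the end of histone messages (3709 and 3611 TPM), Bpgm, the bisphosphoglycerate mutase (3337 and 3011 TPM), Oas1e (2985 and 2803 TPM), Rdx, or radixin (2785 and 2609.9 TPM), and Plac8 (1983 and 2097 TPM). These 6 were named after their values were seen.

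The TPM was not spread evenly over the chromosomes. Chromosome 11 held 13.1% of the TPM with 7.49% of the listed genes, chromosome 9 held 12.4% with 5.63%, and chromosome 6 held 11.9% with 4.84%. Chromosome 9, with the F-box WD40 cluster, Dppa5a, Omt2a, Omt2b, Ooep and Khdc3, had 17 of the 100 highest genes. Chromosome 6 had Ldhb, Dppa3, H1f8 and Tmsb10, and chromosome 11 had Ubb, Elobl, Pttg1, Skp1 and Hexdc. Over the listed chromosomes the share ran from 1.39% on chromosome 18 to 13.1% on chromosome 11. The medians of genes at 1 TPM or more in both libraries ran from 6.695 TPM on chromosome X to 10.6 TPM on chromosome 9. They were 7.95 TPM on chromosome 11, 10.6 TPM on chromosome 9 and 8.445 TPM on chromosome 6. Genes of the X chromosome that reached 1 TPM in both libraries, 299 in number, had a median of 6.49 TPM in control 1 and 6.65 TPM in control 2, against 8.33 and 8.94 TPM for 8635 autosomal genes. Growing oocytes have both X chromosomes active. No test was made of this difference in medians.

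The order of genes changed when reads rather than TPM were counted. By estimated count Clec16a was first, with 1231770 counts in control 1 and 999313 in control 2, and Spin1 was second, with 888247 and 766114 counts. Both have long transcripts, and a long transcript gives more fragments per molecule. Of the 100 highest genes by TPM, 79 were among the 100 highest by count. Ldhb had rank 3 by count, whereas Elobl had rank 4 by TPM and rank 14 by count.

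The dominant transcript of a gene, meaning the listed transcript with the highest mean TPM, was examined in the 8146 genes with several listed transcripts and at least 10 estimated counts in each library. Its median share of the gene's TPM was 77.4%, and in 31.6% of genes it held over 90%. The same transcript was dominant in both libraries in 6805 genes (83.5%). Agreement followed abundance, from 66.6% of genes under 1 TPM through 83.1% at 1 to 10 TPM and 94.6% at 10 to 100 TPM to 98.0% at 100 to 1000 TPM and 99.0% from 1000 TPM up. It fell with the number of listed transcripts, from 89.9% of genes with 2 to 59.3% of genes with 10 or more. Where the libraries disagreed, the dominant transcript had a median share of 49.3%, against 83.6% where they agreed. Among the 1000 highest genes, 571 had several transcripts and 11 had a different dominant one in each library.

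**Figure D4:**
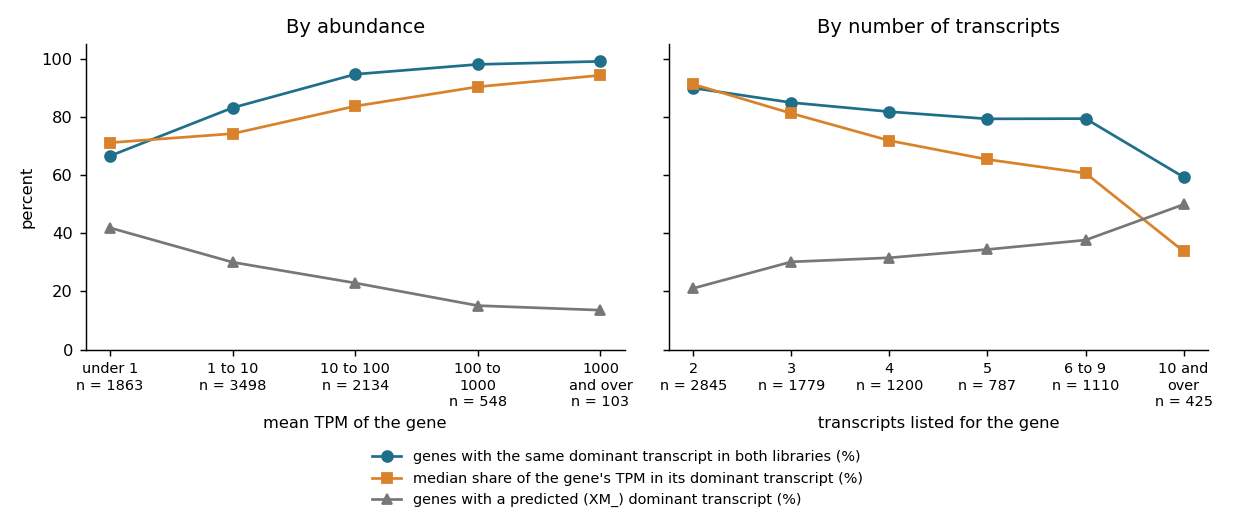
Percent of genes with the same dominant transcript in both libraries (circles), median share of the gene's TPM in its dominant transcript (squares) and percent of genes whose dominant transcript is a predicted XM_ model (triangles), by mean TPM (left) and by the number of transcripts listed for the gene (right), with the number of genes under each point. Agreement rises from 66.6% to 99.0% with abundance and falls from 89.9% to 59.3% with the number of transcripts.

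The marker genes had 1 clear dominant transcript. Spin1 was measured through NM_011462.3, which held 99.9% of its TPM in both libraries although 7 transcripts were listed, and Gdf9 through NM_008110.2, which held 99.5% in both. Dppa3 and Zp3 had 1 listed transcript each. Zp2 was divided, with NM_011775.7 at 70.0% in control 1 and 64.0% in control 2 and XM_006507590.3 at 25.8% and 32.0%. In Ldhb the transcripts NM_001316322.1 and NM_008492.3 had the same TPM, 13727 in control 1 and 12649 in control 2. Such exact ties at the top were found in 43 of the 8146 genes. H1f8 was divided between NM_138311.3, at 63.6% and 64.7%, and NM_001346702.1.

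RefSeq marks reviewed or provisional messenger RNA models with NM_ and models predicted from genome annotation with XM_. The predicted models held 13.2% of the TPM of control 1 and 13.1% of control 2, and were dominant in 29.7% of the 8146 genes. Among the 100 highest genes with several transcripts, 65 in all, the dominant transcript was the same in both libraries for each and a predicted model for 8, and these 8 genes held 6.32% of the TPM.

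For 4 of the 8 the reviewed models were almost unused. Clec16a had no NM_ transcript in the table, and XM_030249312.1 held 85.7% and 84.8% of its TPM. For Hddc3, XM_030242953.1 held 95.3% and 92.9%, while its NM_ transcript had 8 counts in control 1 and 3 in control 2, out of 613859 and 522714. For Dnajc14, a DnaJ chaperone, XM_030245332.1 held 99.9% in both libraries, and its NM_ transcript had 26.4 and 42.1 counts out of 394055 and 314012. For Hexdc, XM_006533266.2 held 63.9% and 56.5% and XM_011249002.2 held 32.7% and 40.3%, with 28.0 and 20.7 counts on the NM_ model. Restricted to NM_ models, the TPM of each of these 4 genes was at most 0.52 in either library. In the other 4, Elobl (XM_030245855.1, 91.0% and 92.9%), E330034G19Rik (XM_006518327.3, 88.1% and 88.8%), Rpl5 (XM_006534684.3, 84.6% and 83.7%) and Txndc9 (XM_006496358.4, 94.3% and 94.4%), an NM_ transcript held a measurable part.

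The highest gene with a different dominant transcript in each library was Fbxw22, at rank 137, in which XM_006512181.2 led in control 1 with 49.9% and NM_001014395.2 led in control 2 with 49.7%. In Atp5g1 the 2 leading transcripts were within 2 percentage points of each other in each library. Hnrnpc, with 18 listed transcripts, had none above 17.6%.

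The 2 libraries agreed closely at the gene level. Across the 9160 genes with a mean of at least 1 TPM, Pearson's correlation of log2(TPM + 1) was 0.998 and Spearman's was 0.994, a description across genes, which are not independent and which share each library's depth. The log2 ratio of control 2 to control 1 had a median of 0.07 and an SD of 0.16, and 71.8% of the genes were higher in control 2. Of the 100 highest genes, 67 were lower in control 2. At 1 to 10 TPM 71.7% of genes were higher in control 2, and from 1000 TPM up 39.3% were, so control 2 placed slightly less of its TPM in the most abundant genes.

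The spread between libraries was wider than counting error in each range of abundance. A robust SD of the log2 ratio, from the median absolute deviation, was 0.19 at 1 to 10 TPM, 0.12 at 10 to 100 TPM, 0.09 at 100 to 1000 TPM and 0.08 from 1000 TPM up. Poisson counting alone would give 0.14, 0.06, 0.03 and 0.01. Single transcripts had a wider spread than gene sums at 1 to 10 TPM, 0.35 against 0.19, and a similar one from 1000 TPM up, 0.09 against 0.08.

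**Figure D5:**
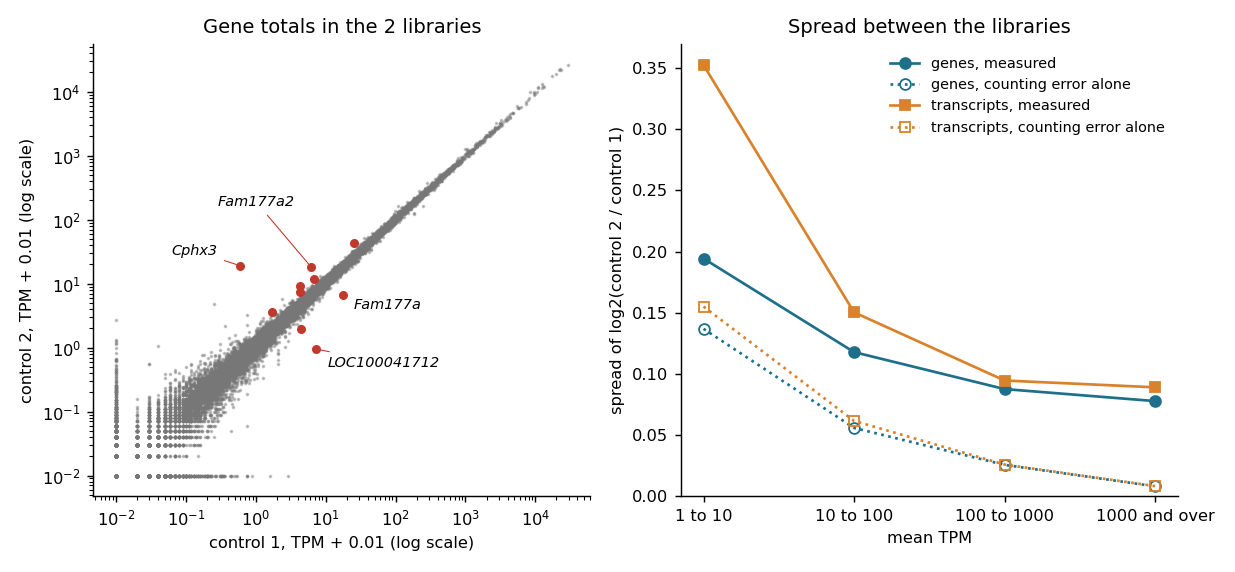
Left, TPM + 0.01 of each gene in control 2 against control 1 (log scales), with the 10 genes of the largest log2 ratio among those with a mean count of at least 100 in red and 4 of them named. Right, robust SD of log2(control 2 / control 1) by mean TPM for genes and for transcripts (solid) beside the SD that Poisson counting alone would give (dotted). Measured spread falls from 0.19 to 0.08 for genes and stays above the counting error throughout.

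Of 8533 genes with a mean of at least 100 counts, 38 had a log2 ratio above 0.5 in size and 4 above 1. Cphx3, a homeobox gene, stood at 0.58 TPM in control 1 and 19.1 TPM in control 2, a log2 ratio of 3.67 on the log2(TPM + 1) scale. Its relatives Cphx1 (99.8 and 89.7 TPM) and Cphx2 (27.9 and 27.6 TPM) did not differ in this way, and the sum of the 3 genes was 128 and 136 TPM. Fam177a stood at 17.6 and 6.72 TPM and its neighbouring copy Fam177a2 at 6.22 and 18.1 TPM, while their sum was 23.8 and 24.8 TPM. Cphx3, Fam177a and Fam177a2 each differed more between the libraries than the sum of their family did. How close these copies are in sequence was not measured here, and the part of read assignment in the difference was not tested. LOC100041712 stood at 7.37 and 0.94 TPM. The remaining 6 had log2 ratios between -0.87 and 0.93 and were Slc39a8, a zinc transporter, 2210418O10Rik, Rps27rt, which is a retrocopy of Rps27, Gm14296, Gm3183 and Cldn4, a claudin of tight junctions (4.25 and 7.51 TPM).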

How the data were processed

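Sample groups were taken from the GEO labels, and gene sums were formed over the transcripts that share a gene ID in the deposited table. Per the labels, messenger RNA was isolated with oligo(dT), and the submitters' processing notes name HISAT2, Bowtie2, RSEM and mm10, without versions or roles. The authors deposited an estimated count per RefSeq transcript, not scaled for library size, and TPM values, which are corrected for the length of the transcript and sum to one common total. The remaining 14 columns of values, among them those of the irradiated libraries, averages and FPKM, were not used. Estimated counts share reads among transcripts and among near-identical genes, so values of single transcripts and copies carry that error as well as counting error.

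Symbols and coordinates came from RefSeq (GRCm38.p6) by gene ID, and 17323 of 17374 matched. Means and SD are over the 2 control libraries, which the study describes as independent experiments. No test was possible within 1 group. A count of 3 served as the floor, at a level of 95% and for counting error only. Detection meant 1 TPM in both libraries, the log scale used a pseudocount of 1, and the dominant transcript required 10 counts in each library. Promoter pairs were aligned end to end with gaps. TMM factors, 0.973 and 1.03, were computed with edgeR 4.0.16 in R 4.3.3 on rounded counts, and other steps used Python 3.11.15, pandas 2.3.3 and scipy 1.17.1. The functions were tested on simulated data. Alternatives were each library alone, estimated counts in place of TPM, NM_ transcripts only, and other thresholds, filters and pseudocounts.

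The genes named are the 30 of highest mean TPM, the 4 markers, the 3 highest of each list, the 10 with the largest ratio between libraries, genes among the 100 highest with a predicted or differing dominant transcript, and somatic markers at 1 TPM or more in both libraries. Any further gene was picked with its values in view. Some genes that this rule names are not reported here. The lists and members were chosen with earlier results of these data known.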

Additional observations from a re-analysis of the deposited data

How the results depend on the processing

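The share of TPM in the 100 highest genes, 52.0%, was 49.7% of estimated counts and 53.0% with NM_ transcripts only, and that in the 10 highest genes, 18.2%, was 19.5% with NM_ transcripts only, each a move larger than the SD between libraries. The number of genes that hold 50% of the TPM ranged from 85 to 102, and the number detected from 7475 to 13286. The percentage of genes with the same dominant transcript, 83.5%, was 88.9% with at least 100 counts, 79.8% with any count above 0, 82.3% when the dominant transcript was chosen by count and 84.7% among NM_ transcripts. The median share of the dominant transcript, 77.4%, was 79.1%, 76.7%, 76.0% and 82.8% in the same order, and 80.1% and 80.2% in each library alone, where the highest transcript of that library is taken by construction. The spread of the log2 ratio, 0.16, was 0.39 for single transcripts and between 0.12 and 0.22 under the other settings. Of 37 gene lists without the oocyte and other cell type markers, 24 kept their share within 1.5 times when counts replaced TPM. Of the rest, 6 were higher and 7 lower by more. Among the lower were cytosolic ribosomal proteins (1.28% of counts against 3.43% of TPM) and oxidative phosphorylation subunits (1.23% against 3.49%). With NM_ transcripts only, 36 of the 37 stayed within 1.5 times, and the PI3K, FOXO3 and mTOR list fell to 0.461 times its share. No paired analysis was possible because there is 1 group and no test between groups was made. With 2 libraries the SD itself is imprecise, and values under 1 TPM can rest on few counts.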
